A study of Phragmites australis with 7 samples.

Results

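Single-cell RNA was measured in 6 of the 7 samples of a study of common reed (Phragmites australis), and these 6 libraries were compared by their batch label. The tissue label reads shoot, the buds of each plant were pooled, and each plant gave 1 library. Batch 1 held the European plants EU60 and EU78 and the North American invasive plant NAint113. Batches 2 and 3 held the European plant EU620 (batch 2), the invasive plant NAint61 (batch 3) and the invasive plant NAint191 (batch 2). All 6 plants were untreated and came from a common garden, with a temperature of 25 °C in the labels, and all cells were released as protoplasts by the same enzyme digestion. The protocol in the labels names the rhizome tip, whereas the tissue label names the shoot. Age and the number of buds that went into each library were not given in the labels. The remaining sample, a bud section measured by spatial RNA, was not used.

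Members of the comparison were the libraries, and cells entered when they had at least 500 genes. This kept 65150 of 67194 cells, between 6923 and 14872 per library. Raw counts of unique molecular identifiers (UMIs, which count captured RNA molecules) were summed per library, to between 94945899 and 132341728 UMIs. Of 42095 features, 33522 reached 10 UMIs in at least 1 library and were tested with edgeR's quasi-likelihood test, with population (European or invasive) as a block. A gene was called when its Benjamini-Hochberg adjusted p was under 0.05 and its absolute log2 fold change over 1. Levels are CPM, counts scaled to 1000000 UMIs of normalized library size, fold changes are batch 1 over batches 2 and 3, and the error given with a fold change is an approximate standard error. Per-library values run in the order EU60, EU78 and NAint113 for batch 1, and EU620, NAint61 and NAint191 for batches 2 and 3.

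In a green shoot, photosystem II and photosystem I sit in the thylakoid membrane of the chloroplast. Each is surrounded by antenna proteins that bind chlorophyll and pass on light energy. Electrons move between the photosystems through the cytochrome b6f complex and plastocyanin, and the Calvin cycle in the stroma fixes carbon dioxide with Rubisco. Most of these proteins are encoded in the nucleus and imported, while some core subunits, the large subunit of Rubisco and the plastid RNA polymerase are encoded in the plastid itself. Young buds hold proplastids that become chloroplasts as the tissue greens, and plastid ribosomes are needed for that change. Reed genes carry here the symbol of their best match in Arabidopsis, and their roles are those known from Arabidopsis.

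Genes of photosynthesis were lower in batch 1 than in batches 2 and 3. Of the 47 nuclear genes in the lists of photosystem I, photosystem II, antenna, and electron transport and Calvin cycle, all passed the filter on low counts, 42 were called lower in batch 1 and 0 higher. Over all genes tested, 5.41% were called lower and 4.62% higher. The median log2 fold change of the 47 genes was -4.74, where that of all genes tested was -0.02. The CPM of the sides did not overlap for 45 of the 47 genes, with batch 1 lower for 44 and higher for 1, where 39.9% of all genes tested did not overlap. The lists were drawn from cell type markers that the study took from these same libraries, so they are not independent of these data. In sums over all cells of a library, fewer cells of a type and less RNA per cell cannot be told apart.

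The calls rested on all libraries but NAint61. Leaving out EU60, EU78, NAint113, EU620 or NAint191 in turn left 0 genes called by edgeR in the whole table, with lowest adjusted p values between 0.0557 and 0.133. Between 4738 and 9469 genes then had an unadjusted p under 0.05. In these fits and in the fit without NAint61, 46 of the 47 photosynthesis genes stayed lower in batch 1, and between 42 and 46 of them had an unadjusted p under 0.05. Without NAint61, which sets batch 1 against batch 2 alone, 44 of the 47 were called lower, as were 9.90% of all genes. DESeq2's Wald test on all 6 libraries called 44 lower and 1 higher, against 13.4% lower and 11.5% higher over all genes.

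Batch, depth and photosynthesis could not be told apart in this design. The median number of UMIs per cell was 8754, 8929 and 6352 in batch 1, and 11771, 8058 and 8283 in batches 2 and 3. These medians overlapped, with a mean of 8012 ± 1440 in batch 1 and 9371 ± 2082 in batches 2 and 3 (SD over 3 libraries a side). The exact permutation test, two-sided, gave p = 0.6, where 0.1 is the smallest p that 3 against 3 allows. Sequencing reads per cell are another measure of depth. By the study's description of its libraries they were higher in each library of batches 2 and 3 than in any of batch 1, and they were not analysed here. Within each population every batch 1 library was the shallower, and log2 median UMIs per cell carried 99% of the variation of the batch side within populations. With this measure as a covariate, edgeR called 0 genes (0%) in either direction, 2162 had an unadjusted p under 0.05, and the median log2 fold change of the 47 photosynthesis genes turned to 1.97. When each cell was thinned to 2000 UMIs before summing, 42 of the 47 genes were called lower, against 5.05% of all genes tested in that fit.

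**Figure D1:**
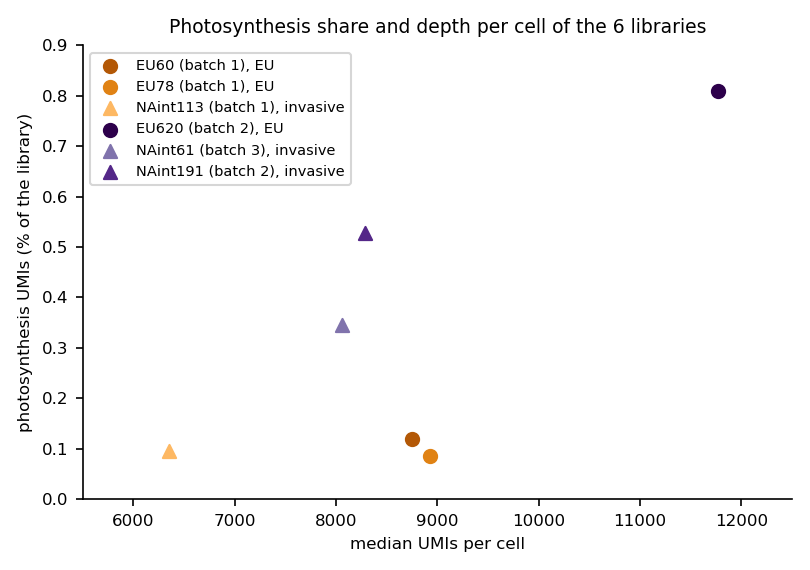
UMIs of the 47 nuclear photosynthesis genes as percent of all UMIs of a library (y axis) against the median UMIs per cell (x axis), 1 point per library, with circles for European and triangles for invasive plants. The 3 batch 1 libraries lie between 0.0846% and 0.120%, and the 3 libraries of batches 2 and 3 between 0.345% and 0.810%.

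The 47 genes took 0.120%, 0.0846% and 0.0953% of all UMIs in batch 1, and 0.810%, 0.345% and 0.528% in batches 2 and 3. The lowest library of batches 2 and 3, NAint61, was thus above the highest of batch 1, EU60. The mean share was 0.100% ± 0.0181 in batch 1 and 0.561% ± 0.234 in batches 2 and 3 (SD, n = 3 each), 5.61-fold higher in batches 2 and 3 (exact permutation test, p = 0.1, two-sided and the smallest possible). Within batches 2 and 3, EU620 had the highest CPM for 42 of the 47 genes and NAint61 the lowest for 44. Within batch 1, EU60 was highest for 29 genes. The genes lay on 20 chromosomes, and 21 of 22 genes of subgenome A and 21 of 25 of subgenome D were called lower.

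**Figure D2:**
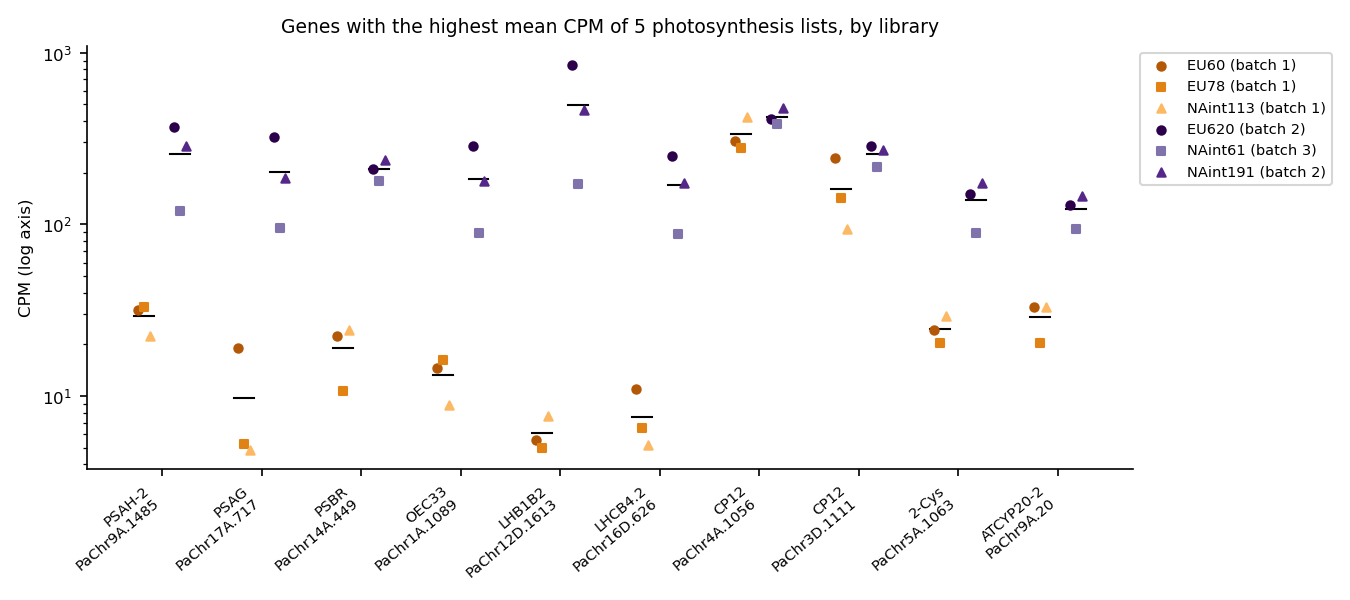
CPM (log axis) of the 2 genes with the highest mean CPM in each of 5 photosynthesis lists, 1 point per library and a line at the mean of 3 libraries, with batch 1 at the left of each gene. The sides are apart for 8 genes and overlap for the 2 copies of CP12.

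Photosystem I takes electrons from plastocyanin and passes them to ferredoxin. All 11 genes of its subunits were called lower in batch 1, with log2 fold changes between -5.16 and -2.97. PSAH-2 (PaChr9A.1485), a subunit at the docking site of the mobile antenna, had 31.7, 33.1 and 22.5 CPM in batch 1, against 367, 119 and 288 CPM in batches 2 and 3. Its log2 fold change was -3.34 ± 0.43 (adjusted p = 0.0219). PSAG (PaChr17A.717), which helps anchor the antenna to the core, had 19.03, 5.27 and 4.85 CPM in batch 1, against 323, 95.5 and 187 CPM in batches 2 and 3. Every library of batch 1 was below every library of batches 2 and 3 for each of the 11 genes. Summed over the list, CPM averaged 99.5 ± 20.6 in batch 1 and 1348 ± 697 in batches 2 and 3 (SD, n = 3 each), 13.5-fold higher in batches 2 and 3.

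Photosystem II splits water, and its extrinsic proteins shield the oxygen-evolving cluster. Of 11 genes, 10 were called lower in batch 1 and 0 higher, with a median log2 fold change of -4.44. OEC33 (PaChr1A.1089), an oxygen-evolving protein, had 14.6, 16.3 and 8.92 CPM in batch 1, against 287, 89.6 and 178 CPM in batches 2 and 3 (log2 fold change -4.06 ± 0.39, adjusted p = 0.0186). PSBR (PaChr14A.449), a small subunit, had 22.3, 10.7 and 24.3 CPM in batch 1, against 211, 178 and 238 CPM in batches 2 and 3 (-3.39 ± 0.41). For PSBR the 3 libraries of batches 2 and 3 lay close together, unlike those for OEC33, where NAint61 was the lowest. The gene that was not called, PSBX (PaChr16D.122), had 26.7, 8.10 and 23.1 CPM in batch 1, against 169, 38.5 and 104 CPM in batches 2 and 3 (log2 fold change -2.45 ± 0.67, adjusted p = 0.0659). Its other copy, PaChr15A.1404, was called, with a log2 fold change of -4.44. Both PSBX genes, like the 2 genes PETE1 and GAPA-2 and the uncalled genes of the next list other than CP12, were named after their values were seen.

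Antenna genes had the most negative median of the 17 gene lists, -6.32, and all 11 were called lower in batch 1. LHB1B2 matches a major chlorophyll a/b protein of photosystem II. Its gene on chromosome 12 (PaChr12D.1613) had 5.55, 5.02 and 7.69 CPM in batch 1, against 851, 172 and 464 CPM in batches 2 and 3 (log2 fold change -6.35 ± 0.70, adjusted p = 0.0186). LHCB4.2 (PaChr16D.626), a minor antenna protein between the core and the outer antenna, had 10.98, 6.55 and 5.17 CPM in batch 1, against 249, 88.4 and 175 CPM in batches 2 and 3. Both genes were lowest in NAint61 among batches 2 and 3. Some antenna genes were close to absent from batch 1. PaChr2D.1749, another LHB1B2 gene, had 4, 0 and 36 UMIs in batch 1, against 6681, 2448 and 2259 UMIs in batches 2 and 3. Its log2 fold change, -8.39 ± 1.51, was the most negative of all called annotated genes whose sides did not overlap.

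The other LHB1B2 genes had at most 1.72 CPM in any batch 1 library. PaChr20D.1112 had 0.619, 0.682 and 0.192 CPM in batch 1, against 147, 10.8 and 43.1 CPM in batches 2 and 3. PaChr1A.1353 had 0.282, 0.0549 and 1.23 CPM in batch 1, against 93.9, 21.5 and 113 CPM in batches 2 and 3. PaChr2D.1265 had 0.525, 0.0784 and 1.72 CPM in batch 1, against 90.8, 50.2 and 55.9 CPM in batches 2 and 3. The log2 fold changes of these 3 genes were -7.50, -7.39 and -6.56, and all 3 were called. LHCB2 (PaChr3D.1750), a further outer antenna gene, had 0.901, 0.659 and 0.812 CPM in batch 1, against 118, 24.3 and 43.1 CPM in batches 2 and 3 (-6.32 ± 0.60). Near-identical copies can share reads, so the division of UMIs among the LHB1B2 genes is uncertain. Summed over the 11 antenna genes, which joins these copies, CPM was 24.3, 17.8 and 22.0 in batch 1, against 2018, 515 and 1160 in batches 2 and 3.

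The list of electron transport and Calvin cycle was less uniform. Of 14 genes, 10 were called lower in batch 1, 0 higher and 4 were not called. Plastocyanin, PETE1 (PaChr13D.3), had 4.26, 2.34 and 3.74 CPM in batch 1, against 271, 85.3 and 153 CPM in batches 2 and 3, and the largest change of the electron carriers listed (log2 fold change -5.68 ± 0.55). The small subunit of Rubisco, RBCS1A (PaChr22A.687), had 34, 20 and 14 UMIs in batch 1, against 2567, 319 and 922 UMIs in batches 2 and 3 (-6.15 ± 0.64, adjusted p = 0.0186). GAPA-2 (PaChr7A.1120), a subunit of the glyceraldehyde 3-phosphate dehydrogenase of the cycle, also fell below 1 CPM in each batch 1 library, with a log2 fold change of -6.00.

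The 4 genes not called included the 2 with the highest mean CPM of the list. CP12 is a small regulator that holds enzymes of the Calvin cycle in an inactive complex. CP12 (PaChr4A.1056) had 305, 277 and 424 CPM in batch 1, against 410, 387 and 474 CPM in batches 2 and 3 (log2 fold change -0.26 ± 0.29, adjusted p = 0.581). The second CP12 gene (PaChr3D.1111) had 244, 143 and 93.5 CPM in batch 1, against 285, 216 and 272 CPM in batches 2 and 3 (-0.97 ± 0.39, adjusted p = 0.150). The sides overlapped for both. AtRbcX2 (PaChr3D.2662), an assembly chaperone of Rubisco, ran the other way without passing the test, with 240, 167 and 244 CPM in batch 1, against 132, 42.1 and 44.5 CPM in batches 2 and 3 (log2 fold change 1.56 ± 0.46, adjusted p = 0.0769). DESeq2 called it higher. The remaining uncalled gene, the triose phosphate translocator APE2 (PaChr2D.20), had a log2 fold change of -1.55 ± 0.42 (adjusted p = 0.0656). With these genes included, the summed CPM of the list was 821.5 ± 117 in batch 1 and 1563 ± 522 in batches 2 and 3 (SD, n = 3 each), 1.9-fold higher in batches 2 and 3.

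Genes for chlorophyll and for the thylakoid membrane followed the photosystems, with all 9 called lower in batch 1 and a median log2 fold change of -3.62. PORA makes chlorophyllide in the light. Its gene PaChr11D.92 had 0.423, 0.235 and 0.628 CPM in batch 1, against 58.4, 11.1 and 91.6 CPM in batches 2 and 3 (-6.91 ± 0.96, adjusted p = 0.0225). The stromal peroxidase 2-Cys (PaChr5A.1063) had 24.2, 20.3 and 29.4 CPM in batch 1, against 151, 89.5 and 174 CPM in batches 2 and 3 (-2.46 ± 0.37). ATCYP20-2 (PaChr9A.20), a prolyl isomerase of the thylakoid, had 33.3, 20.4 and 33.1 CPM in batch 1, against 129, 94.2 and 146 CPM in batches 2 and 3 (-2.06 ± 0.35). The smallest fold changes of the list thus belonged to proteins of redox protection and folding, and the largest to PORA.

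Plastid ribosome genes were called lower in batch 1 for 18 of 18, with log2 fold changes between -3.57 and -1.62. PRPL29 (PaChr6D.2064), a protein of the large subunit, had 45.3, 50.3 and 57.1 CPM in batch 1, against 177, 118 and 173 CPM in batches 2 and 3 (-1.62 ± 0.31, adjusted p = 0.0319), and the smallest change of the list. The call of PRPL29 was lost without the 20% of cells richest in photosynthesis transcripts (edgeR adjusted p = 0.0612). NAint61 was the lowest library of batches 2 and 3 for all 18 genes. All 18 are on the mesophyll marker list of the study, and 0 of the cytosolic ribosome genes tested are. Of 120 genes of the cytosolic ribosome, 1 was called lower and 0 higher, with a median log2 fold change of -0.48, and eL36x (PaChr9A.1035) had 507, 347 and 439.5 CPM in batch 1, against 503, 800 and 711 CPM in batches 2 and 3 (-0.51 ± 0.33, adjusted p = 0.346).

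Transcripts encoded in the plastid were found on unplaced scaffolds. Capture on poly(A) tails recovers such transcripts poorly, and their levels were compared only between libraries. The 77 features of these scaffolds took 0.405%, 0.416% and 0.437% of UMIs in batch 1, and 0.938%, 0.674% and 0.957% in batches 2 and 3 (two-sided exact permutation test, p = 0.1, the smallest possible). RBCL, the large subunit of Rubisco, had 13.4, 10.2 and 17.3 CPM in batch 1, against 170, 60.7 and 137 CPM in batches 2 and 3 (log2 fold change -3.18 ± 0.49, adjusted p = 0.0249). PSBB, a core antenna protein of photosystem II, had 574, 676 and 585 CPM in batch 1, against 2158, 1109 and 2336.5 CPM in batches 2 and 3 (-1.67 ± 0.39, adjusted p = 0.0465). NdhK, of the plastid NADH dehydrogenase-like complex, had 591, 394 and 364 CPM in batch 1, against 1398, 789 and 1094 CPM in batches 2 and 3 (-1.44 ± 0.33, adjusted p = 0.0457). These 3 genes were called lower in batch 1. The call of PSBB was lost with DESeq2's size factors in edgeR (adjusted p = 0.0504), with all genes of at least 1 count (0.0621), without the 5% of cells with the most UMIs (0.0550) and without the 20% of cells richest in photosynthesis transcripts (0.0692). That of NdhK was lost in the last 3 of these fits, with edgeR adjusted p values between 0.0540 and 0.0620.

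The other 3 named plastid genes did not pass the test. YCF3, which assists the assembly of photosystem I, had 32.8, 29.0 and 41.1 CPM in batch 1, against 113, 57.3 and 168 CPM in batches 2 and 3 (-1.66 ± 0.45, adjusted p = 0.0663). The RNA polymerase subunits RPOB and RPOC2 had log2 fold changes of -1.09 ± 0.42 and -0.79 ± 0.36 (adjusted p = 0.141 and 0.193). Of all features on unplaced scaffolds, 32 reached the count filter, of which 8 were called lower, 0 higher, and 15 overlapped between the sides. Among all 33522 genes tested, 5.41% were called lower, 4.62% higher, and 20130 overlapped. For the 6 named plastid genes every batch 1 library lay below every library of batches 2 and 3.

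**Figure D3:**
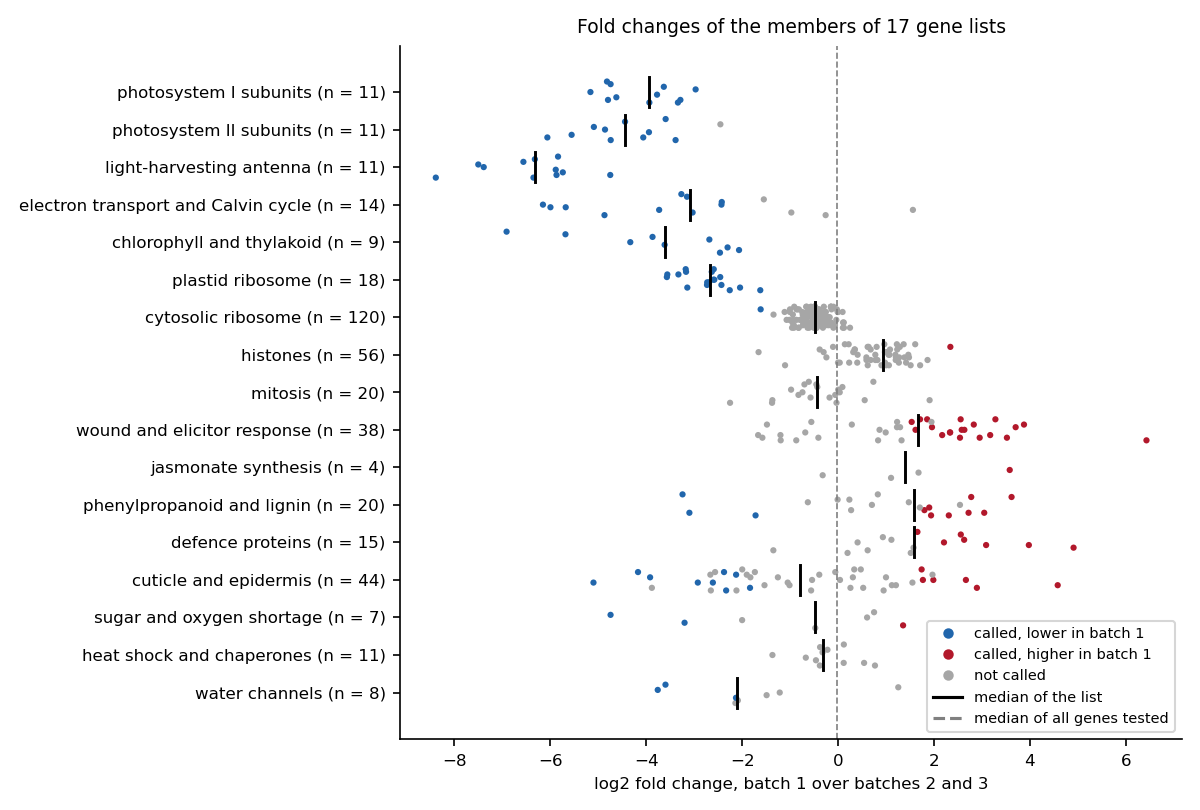
Log2 fold change, batch 1 over batches 2 and 3 (x axis), of each gene of the 17 lists (rows, with the number tested), with a bar at the list's median and a dashed line at the median of all genes tested, -0.02. The 6 uppermost lists lie left of the line apart from AtRbcX2, and the wound, phenylpropanoid and defence lists lie mostly right of it.

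Single cells divided the libraries in the same way. In cells thinned to 2000 UMIs, where 1 UMI is 0.05% of a cell, the median cell held 0.05% on photosynthesis genes in each of the 3 batch 1 libraries. In batches 2 and 3 it held 0.15% in EU620, 0.10% in NAint61 and 0.15% in NAint191 (two-sided exact permutation test, p = 0.1, the smallest possible). These medians are 1 to 3 UMIs, too few to read a size of change from. The upper tail was better resolved, since the 95th percentile was 0.60%, 0.40% and 0.30% in batch 1, and 3.55%, 1.45% and 2.25% in batches 2 and 3. Cells without any UMI on the 47 genes made up 35.4%, 46.1% and 35.6% in batch 1, and 12.96%, 25.4% and 14.2% in batches 2 and 3. Thinning left out 1547, 1195 and 2332 shallower cells in batch 1, and 1169, 1878 and 2042 in batches 2 and 3. Without thinning, the median cell held 0.0552%, 0.0344% and 0.0540% in batch 1, and 0.203%, 0.128% and 0.224% in batches 2 and 3.

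**Figure D4:**
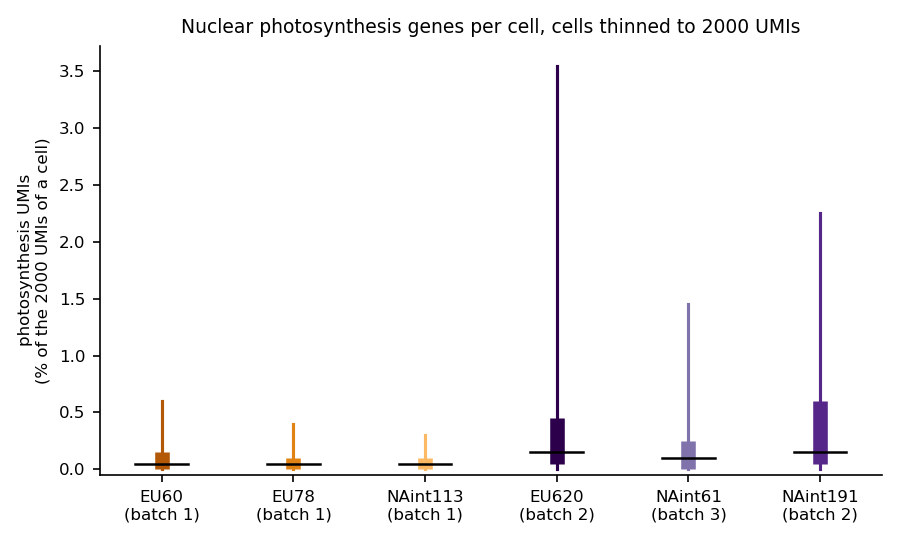
UMIs on the 47 nuclear photosynthesis genes as percent of the 2000 UMIs of a thinned cell (y axis) in each library (x axis, batch 1 at the left), with the 5th to 95th percentile as a thin line, the 25th to 75th as a thick line and the median as a black bar. The upper ends reach 0.30% to 0.60% in batch 1 and 1.45% to 3.55% in batches 2 and 3.

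The shares were also compared in the cells left after removing those richest in these transcripts. When the 20% of cells with the highest photosynthesis share were left out of each library, the remaining cells held 0.0547%, 0.0338% and 0.0503% in batch 1, and 0.159%, 0.103% and 0.185% in batches 2 and 3, a mean 3.22-fold higher in batches 2 and 3. Of the 47 genes, 39 were then called lower in batch 1, against 3.06% of all genes tested in that fit. Of the 18 plastid ribosome genes, 10 were called there. The cells were removed by the same genes and at 1 fixed share per library, so green cells can remain in a library that holds more of them.

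In each library the 5% of cells with the highest share on another list were also compared, as a range of cells and not as a cell type. In the cells rich in histone and mitosis transcripts, which rise in dividing cells, photosynthesis genes held 0.0690%, 0.101% and 0.127% in batch 1, and 1.08%, 0.480% and 0.665% in batches 2 and 3. These cells had a median of 11053, 9448 and 9738 UMIs in batch 1, and 9171, 15853 and 12340 in batches 2 and 3. In cells rich in cuticle and epidermis transcripts they held 0.0292%, 0.0191% and 0.0361% in batch 1, and 0.0561%, 0.0761% and 0.0842% in batches 2 and 3. In cells rich in phenylpropanoid and lignin transcripts they held 0.0622%, 0.0460% and 0.0580% in batch 1, and 0.158%, 0.174% and 0.0758% in batches 2 and 3. The sides did not overlap in any of the 3 ranges (two-sided exact permutation test, p = 0.1 in each, the smallest possible). The histone and mitosis range stood 7.49-fold higher in batches 2 and 3, the cuticle range 2.57-fold and the phenylpropanoid range 2.45-fold. Cutoffs, the lowest list share in a range, differed between libraries. For histones and mitosis they were 2.14%, 1.12% and 2.13% in batch 1, and 0.59%, 2.04% and 1.18% in batches 2 and 3. For phenylpropanoid genes they were 2.08%, 2.59% and 1.88% in batch 1, and 0.922%, 0.943% and 0.917% in batches 2 and 3. Those of the cuticle range overlapped. The ranges thus need not hold like cells, and the ratios cannot be read as changes within a cell type. UMIs from RNA free in the droplets were not separated from those of the cells, and their part in the photosynthesis shares was not tested.

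Marker lists of mesophyll and chlorenchyma were lower in batch 1, as were the photosynthesis genes. By comparison, edgeR called 5.41% of all genes tested lower and 4.62% higher. Of the 115 mesophyll markers of the study, 80 were called lower in batch 1 and 0 higher, and their summed CPM was 9164, 5632 and 8207 in batch 1, against 38110, 18190 and 41940 in batches 2 and 3. Of the 32 chlorenchyma markers, 8 were called lower and 0 higher, with summed CPM of 5884, 5284 and 7265 in batch 1, against 21600, 9882 and 25500 in batches 2 and 3. No marker of either list was at 0 in all batch 1 libraries. The same held for every other marker list, and only 70 of the 33522 genes tested were at 0 there. This count therefore says nothing particular about mesophyll or chlorenchyma. The mesophyll list holds 33 of the 47 photosynthesis genes, so the 2 counts overlap. Lists of other cell types moved as well. Of 158 bundle sheath markers, 112 were called higher in batch 1 and 0 lower. Of 69 xylem markers 23, and of 49 markers of the second epidermal cluster 16, were called lower. The part of the cell mix in the difference was not tested.

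Genes of the response to wounding and to elicitors were mostly higher in batch 1. Of 38, 20 were called higher and 0 lower, with a median log2 fold change of 1.66, where 4.62% of all genes tested were called higher. AtPUB23 matches a ubiquitin ligase induced by microbial elicitors. Its gene PaChr7A.1300 had 89.6, 179 and 106 CPM in batch 1, against 0.940, 0.442 and 3.55 CPM in batches 2 and 3 (log2 fold change 6.43 ± 1.00, adjusted p = 0.0252), the largest increase of all called annotated genes whose sides did not overlap. Every batch 1 library lay above every library of batches 2 and 3 for 27 of the 38 genes, and below for 5. Among all 33522 genes tested, this was so for 6642 above and 6750 below. The summed CPM overlapped between the sides, with 12890, 15670 and 17000 in batch 1, against 13250, 9677 and 10690 in batches 2 and 3. The list was thus not uniform. Its member with the highest mean CPM, the transcription factor ERF109 (PaChr14A.1038), had 625, 806 and 700 CPM in batch 1, against 1766.5, 1797 and 1179 CPM in batches 2 and 3 (-1.20 ± 0.33, adjusted p = 0.0674). DESeq2 called 26 of the list higher and 4 lower.

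Defence and phenylpropanoid genes were mostly on the same side. Of 15 defence genes, 7 were called higher in batch 1 and 0 lower, where 4.62% of all genes tested were called higher. ATCHITIV matches a chitinase that cuts fungal cell walls. Its gene PaChr11D.988 had 78.5, 287 and 194 CPM in batch 1, against 7.05, 8.13 and 3.01 CPM in batches 2 and 3 (log2 fold change 4.91 ± 0.69, adjusted p = 0.0229). Another chitinase gene, PaChr5A.1323, had the highest mean CPM of the list and did not pass, with 2594, 4542 and 2497 CPM in batch 1, against 1005, 1592 and 577 CPM in batches 2 and 3 (1.52 ± 0.53, adjusted p = 0.113).

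Phenylpropanoid metabolism turns phenylalanine into lignin precursors and phenolic defence compounds. Of its 20 genes, 8 were called higher in batch 1 and 3 lower, where 4.62% and 5.41% of all genes tested were. ATC4H (PaChr9A.592), a cinnamate hydroxylase at the start of the pathway, had 2064, 3109.9 and 2319.5 CPM in batch 1, against 462, 606 and 453 CPM in batches 2 and 3 (2.31 ± 0.36, adjusted p = 0.0251). The 8 genes called higher encode early enzymes of the pathway and HCT, namely ATPAL1, ATC4H, 4CL2 and HCT. The 3 called lower were both AtCOMT genes and ATCAD9, methyltransferase and alcohol dehydrogenase steps that lead to lignin monomers. Of all 20 genes, 9 were not called and 5 had a log2 fold change below 0. Whether the list divides by step of the pathway was not tested. AtCOMT PaChr14A.285 had 11.5, 5.32 and 7.22 CPM in batch 1, against 57.8, 41.9 and 146 CPM in batches 2 and 3 (-3.24 ± 0.65). The genes of this paragraph other than ATC4H were named after their values were seen.

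**Figure D5:**
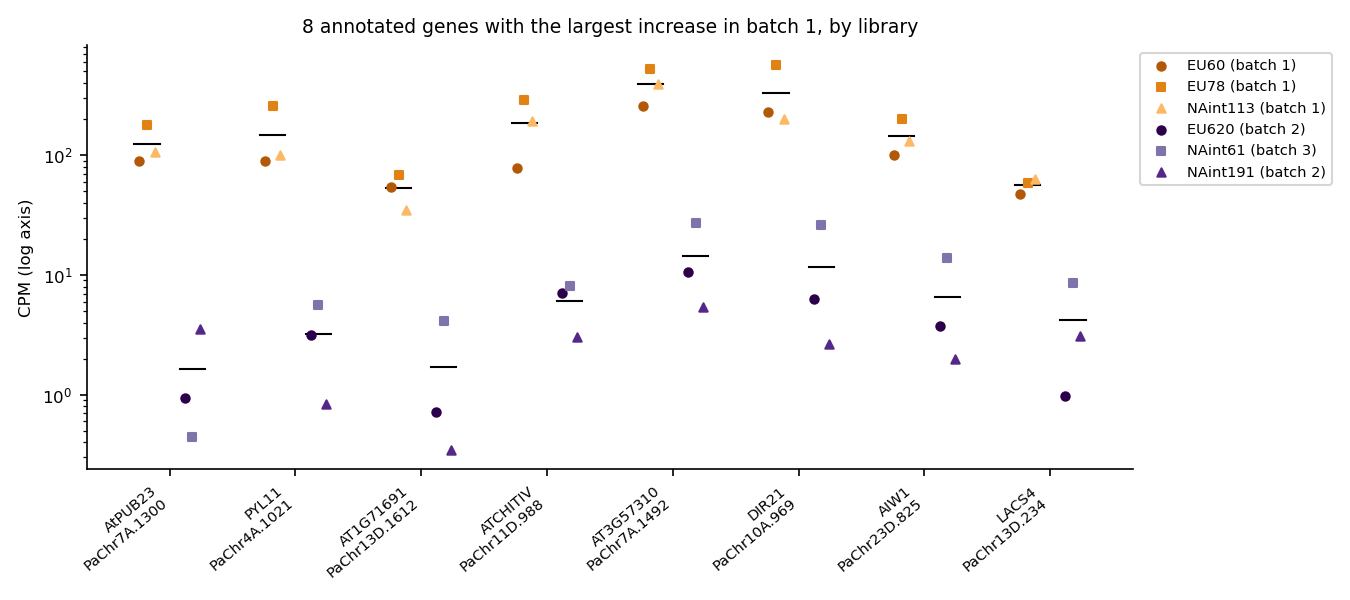
CPM (log axis) of the 8 annotated genes with the largest increase in batch 1 among called genes whose sides did not overlap, 1 point per library and a line at the mean of 3 libraries, with batch 1 at the left of each gene. Every batch 1 library lies above every library of batches 2 and 3.

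The remaining annotated genes with the largest increases did not fall into 1 list. PYL11 (PaChr4A.1021), a match to an abscisic acid receptor, had 89.0, 255 and 101 CPM in batch 1, against 3.18, 5.67 and 0.840 CPM in batches 2 and 3 (log2 fold change 5.35 ± 0.92). DIR21 (PaChr10A.969), a dirigent protein that guides the coupling of phenoxy radicals, had 228, 569 and 201 CPM in batch 1, against 6.26, 26.1 and 2.65 CPM in batches 2 and 3 (4.90 ± 1.15, adjusted p = 0.0472). LACS4 (PaChr13D.234), an acyl-CoA synthetase, had 47.2, 58.2 and 63.9 CPM in batch 1, against 0.977, 8.64 and 3.12 CPM in batches 2 and 3 (4.58 ± 0.75). The others were PaChr13D.1612 (AT1G71691), PaChr7A.1492 (AT3G57310) and PaChr23D.825 (AIW1), with log2 fold changes of 5.18, 4.91 and 4.67. With all genes of at least 1 count in the fit, the calls of DIR21 and AT1G71691 were lost (edgeR adjusted p = 0.0568 and 0.0522). That of DIR21 was also lost without the 20% of cells richest in photosynthesis transcripts (edgeR adjusted p = 0.0515). EU78 was the highest library for 7 of the 8 genes of this group, and NAint61 was the highest of batches 2 and 3 for 7.

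Lists of surface, jasmonate and sugar or oxygen shortage genes were divided or had few calls, and water channels were mostly lower. For all lists of this paragraph, the shares over all genes tested were 4.62% called higher and 5.41% called lower. Of 44 cuticle and epidermis genes, 6 were called higher in batch 1 and 9 lower. LTP3 (PaChr10A.1229), a lipid transfer protein, had 419, 65.3 and 248 CPM in batch 1, against 1571, 235 and 1206 CPM in batches 2 and 3, which overlapped (-2.12 ± 0.88, adjusted p = 0.160). Of 8 water channels, 3 were called lower and 0 higher, where 5.41% of all genes were called lower. Their median log2 fold change was -2.11. An unadjusted p under 0.05 was reached by 7 of the 8, and by 10415 of all 33522 genes tested. Of these 8 genes, 6 are on the mesophyll marker list of the study. GAMMA-TIP (PaChr4A.264), of the vacuole membrane, had 381, 147 and 160 CPM in batch 1, against 780, 608 and 1493.5 CPM in batches 2 and 3 (-2.14 ± 0.63, adjusted p = 0.0761). Of 4 jasmonate synthesis genes 1 was called higher, and AOC3 (PaChr3D.1622), an allene oxide cyclase, had 1865, 2591 and 1693 CPM in batch 1, against 954, 588.5 and 1121 CPM in batches 2 and 3 (1.10 ± 0.39, adjusted p = 0.114). Of 7 genes of sugar and oxygen shortage, 1 was called higher and 2 lower, and HUP35 (PaChr5A.1912), with overlapping sides, had a log2 fold change of -0.48 ± 0.40 (adjusted p = 0.463).

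Few genes of division and heat stress were called by edgeR, which called 4.62% of all genes tested higher and 5.41% lower. Of 56 histone genes, 1 was called higher in batch 1 and 0 lower, with a median log2 fold change of 0.93. An unadjusted p under 0.05 was reached by 20 of the 56, and by 10415 of all 33522 genes tested. Of the 56, 7 had a log2 fold change below 0. DESeq2 called 12 histone genes higher and 1 lower, against 11.5% higher and 13.4% lower over all genes. The summed CPM of the list overlapped between the sides, with 11540, 6029 and 15110 in batch 1, against 4416, 10110 and 5915 in batches 2 and 3. The gene with the highest mean CPM of the list, H3.3 (PaChr13D.123), a replacement histone, had 1401, 1700.1 and 2612 CPM in batch 1, against 967, 1411 and 979.5 CPM in batches 2 and 3 (0.90 ± 0.32, adjusted p = 0.118). Of 20 mitosis genes edgeR called 0, with 2 at an unadjusted p under 0.05, and CKS1 (PaChr3D.291), a partner of cyclin-dependent kinases, had a log2 fold change of -0.03 ± 0.43. Of 11 heat shock and chaperone genes edgeR called 0, again with 2 at an unadjusted p under 0.05. ATHSP70 (PaChr23D.751) had 2114.5, 2021 and 2409 CPM in batch 1, against 1366, 1367.5 and 1142 CPM in batches 2 and 3 (0.77 ± 0.29, adjusted p = 0.136).

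The contrast was computed in each population. For the 47 photosynthesis genes the median log2 fold change was -4.73 in European plants, where EU60 and EU78 were set against EU620, and -4.31 in invasive plants, where NAint113 was set against NAint61 and NAint191. For antenna genes the medians were -7.25 and -5.37, and for plastid ribosome genes -2.98 and -2.43. For wound and elicitor genes they were 1.68 and 1.64, and for phenylpropanoid genes 1.41 and 1.45. In edgeR's test of the interaction of population and batch side, which left 2 residual degrees of freedom, 0 of 33522 genes were called (0%), and the lowest adjusted p was 0.139. At an unadjusted p under 0.05 there were 775 genes, of which 3 were among the 47 photosynthesis genes. DESeq2 was not run on the interaction.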

How the data were processed

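The authors aligned reads of the 6 plants to the assembly ASM4037322v1 with slight changes, counted UMIs with Cell Ranger 8.0 and deposited raw counts per gene and cell. Here, cells with at least 500 genes were kept, counts were summed per library and tested with edgeR 4.0.16 in R 4.3.3 (TMM, population as a block, genes with fewer than 10 counts in every library left out). DESeq2 1.42.0 was an alternative. Single values per library were compared with exact permutation tests over the 20 divisions of 6 libraries. The standard error is the absolute log2 fold change over the square root of F. Doublets were not called, and the 5% of cells with the most UMIs were left out as an alternative. The fit was tested on simulated data. Libraries shared at most 52 barcodes, and no pair of libraries of a side agreed within sampling noise. P values measure the spread between plants, each 1 library of pooled buds.

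Symbols came from best Arabidopsis matches in the marker tables of the study, which covered 1318 features. No sequences were printed. The batch division, the 17 lists and the 19 marker lists were chosen with earlier results of these data known. Genes named were the 2 with the highest mean CPM of each of 5 photosynthesis lists and the 1 of each other list, the 8 annotated and 2 of all genes with the largest called change in each direction (annotated ones without overlap between sides), and 6 plastid genes. Exceptions are marked.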

Additional observations from a re-analysis of the deposited data

How the results depend on the processing

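Against 3361 genes called by edgeR, DESeq2 called 8335, the fit without the 20% of cells richest in photosynthesis transcripts 2181, and the fit with log2 median UMIs per cell as covariate 0. Leaving out 1 library at a time gave between 0 and 6148 calls, with 6148 without NAint61. Size factors, other filters on low counts, no population block, thinning, all cells, leaving out the 5% of cells with the most UMIs and leaving out unplaced scaffolds gave between 2608 and 4792. The depth covariate also turned the direction of named genes. Its log2 fold changes were 3.09 for PSAH-2, 1.42 for OEC33, 2.55 for 2-Cys, 2.70 for PRPL29, 8.04 for PORA, 2.11 for LHCB2, 2.56 for RBCS1A, 4.17 for PSBB and 4.82 for RBCL. For the LHB1B2 genes they were 5.62 (PaChr12D.1613), 8.87 (PaChr2D.1749), 4.0 (PaChr20D.1112), 10.97 (PaChr1A.1353) and 1.91 (PaChr2D.1265). For genes higher in batch 1 they were -2.73 for PYL11, -13.00 for AT1G71691, -2.31 for AT3G57310, -10.45 for DIR21, -6.37 for AIW1 and -7.02 for LACS4, and for PaChr14A.1348 the value was 4.29. Depth and side share nearly all their variation within populations, so this fit has little left to estimate the side from. Differences between the sides in values with 1 number per library (shares of UMIs and medians per cell) kept their direction under every alternative run. The depth covariate was not among the alternatives for these. Median log2 fold changes of lists did change sign. With the depth covariate that of plastid ribosome genes was 1.02 and that of histones -6.7. Thinning to 2000 UMIs turned that of mitosis genes from -0.44 to 0.05. No paired analysis was possible because replicate numbers of the labels count plants within a population and the sides share fewer than 2 of them. Counts of UMIs in single cells limit the per-cell medians to steps of 1 UMI.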

Other observations

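Other marker lists of the study moved in blocks. Of 158 bundle sheath markers, 112 were called higher in batch 1 and 0 lower (median log2 fold change 2.196), and their summed CPM was 79390, 114900 and 88780 in EU60, EU78 and NAint113, against 25180, 25000 and 23620 in EU620, NAint61 and NAint191. Of 298 markers of the second protoderm cluster, 163 were called higher and 0 lower, with summed CPM between 97540 and 135800 in batch 1 and between 34750 and 39150 in batches 2 and 3. Of 38 markers of differentiating vasculature, 14 were called higher and 0 lower. In the other direction, 23 of 69 xylem markers, 16 of 49 markers of the second epidermal cluster and 9 of 48 ground meristem markers were called lower and 0 higher. Over all genes tested 4.62% were called higher and 5.41% lower. Of the bundle sheath markers 34, and of the second protoderm markers 64, are also members of the gene lists used above.

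Few markers of the G2/M and meristematic clusters were called. Of 325 markers of the G2/M cluster, 1 was called higher in batch 1 and 7 lower, with a median log2 fold change of -0.52 and 77 at an unadjusted p under 0.05. Their summed CPM was 42580, 29930 and 37410 in batch 1, against 45980, 64950 and 57060 in batches 2 and 3, which did not overlap. Of these 325 markers, 145 are also members of the gene lists used above. The study describes the markers of this cluster as enriched for translation as well as for the cell cycle. Their sum is therefore not a measure of division alone. Of 101 markers of meristematic cells, 2 were called higher and 0 lower, with 27 at an unadjusted p under 0.05. Of these 101 markers, 79 are also members of the gene lists used above. An unadjusted p under 0.05 was reached by 10415 of all 33522 genes tested. In cells thinned to 2000 UMIs the median number of genes was 1184, 1200 and 1167 in batch 1, and 1208, 1203 and 1259 in batches 2 and 3 (two-sided exact permutation test, p = 0.1, the smallest possible).

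The largest called changes over all genes belonged to genes outside the marker tables of the study, and 3 of the 4 rested on 1 or 2 libraries. Genes outside these tables were not matched to Arabidopsis here. PaChr14A.1348 had 1, 0 and 0 UMIs in EU60, EU78 and NAint113, against 2372 UMIs in EU620, 0 in NAint61 and 2 in NAint191. PaChr24B.14, on the B chromosome, was at 0 in the 3 batch 1 libraries and in EU620, against 1346 UMIs in NAint61 and 777 in NAint191. Against a floor of 3 counts over the 3 batch 1 libraries, it was at least 760-fold lower in batch 1. PaChr20D.705 had 5, 0 and 587 UMIs in batch 1, against 0, 0 and 1 in batches 2 and 3. PaChr19D.311 had 68, 84 and 269 UMIs in batch 1 and 0 in all 3 libraries of batches 2 and 3, at least 131-fold higher in batch 1 against the same floor over batches 2 and 3. Without the population block the calls of PaChr14A.1348, PaChr24B.14 and PaChr20D.705 were lost (edgeR adjusted p = 0.0803, 0.0669 and 0.0832). DESeq2 did not call PaChr24B.14 (adjusted p = 0.231) or PaChr20D.705 (adjusted p = 0.0705).

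Genes of the B chromosome had few calls between the sides. Of 112 tested, 2 were called lower in batch 1 and 0 higher, with a median log2 fold change of -0.03. Over all genes tested 5.41% were called lower and 4.62% higher. The summed CPM of the B chromosome genes was 112, 51.4 and 666 in EU60, EU78 and NAint113, against 75.5, 624.5 and 504 in EU620, NAint61 and NAint191. The invasive plants thus stood above the European plants on both sides. With population as a block, the contrast rested mostly on NAint113 against NAint61 and NAint191. The few calls therefore cannot tell whether these genes followed the batch label.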
